A study of Homo sapiens with 7 samples.

Results

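The contacts of the gene PGR (ENSG00000082175.16_9), which encodes the progesterone receptor, were taken from 3 lists of H3K27ac HiChIP loops, 1 list per cell line. A loop was counted for PGR when 1 of its 2 anchors lay over a window of 500 bp centred on any GENCODE start site of the gene. Of the 354783 loops in the 3 lists, 24 met this rule. T-47D gave 23 of its 42027 loops, Ishikawa 1 of 163530 and LNCaP 0 of 149226.

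HiChIP joins DNA ends that lie near each other in the nucleus and then pulls down the fragments that carry a chosen mark, here acetylation of histone H3 at lysine 27, which is found at active promoters and enhancers. T-47D cells are a breast cancer line (1 sample), Ishikawa cells an endometrial adenocarcinoma line (4 samples) and LNCaP cells a prostate cancer line (2 samples). In Ishikawa, 2 samples received the vehicle DMSO and the other 2 received 17beta-estradiol (E2) at 10 nM for 1 h, and all 4 stand in 1 list, so no effect of E2 on PGR could be read from it. The labels give no treatment for T-47D or LNCaP. Since each line has 1 pooled list, no difference between lines had a replicate error and none was tested. Intervals are 95% intervals for counting error only, exact Poisson for counts and exact binomial for shares. The T-47D list holds 351260 read pairs, the Ishikawa list 1040329 and the LNCaP list 1805322, and no loop in them has fewer than 3 read pairs, and the authors also removed loops by false discovery rate, so a 0 means that no loop passed both filters. The label of each list was checked on its leading genes. GATA3 held 1063 read pairs in promoter loops in T-47D, against 7 in Ishikawa and 0 in LNCaP, PAX8 held 162 in Ishikawa and 0 elsewhere, and KLK3 held 2936 in LNCaP, 6 in Ishikawa and 0 in T-47D.

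The progesterone receptor is a nuclear receptor that, once bound by progesterone, leaves its chaperones and acts on genes through short DNA elements it shares with other steroid receptors such as the glucocorticoid receptor. It is made in a longer form (PR-B) and a shorter form (PR-A) from different start sites of the same gene. PGR is a classic target of the estrogen receptor in breast and uterus, and in breast cancer the receptor is measured in the clinic beside the estrogen receptor. T-47D cells are widely used for work on this receptor because they hold much of it.

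PGR lies on the minus strand at chr11:100900355-101000544 (hg19/GRCh37). Its 10 annotated transcripts use 6 start sites. The first, at 101000544, is that of PGR-202 and PGR-209. The start sites at 101000458, 100999801 and 100997819 lie 86, 743 and 2725 bp downstream of it, and the site at 100999801 is also the first coding base of the long form. The last pair, at 100934756 and 100922201, belong to PGR-206 and PGR-205, transcripts annotated as retained introns.

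The 250 bases before the first start site are shown because the T-47D contacts below converge on the anchor that holds them, and stretches of the strongest 5 partners are shown because these carried most of the read pairs. Each partner stretch is the run of 150 bases with the most matches to the motifs searched, so the number of matches in it is no finding. Capitals mark matches on either strand to any of 7 motifs. GGTCA is 1 arm of an estrogen response element (ERE). ACANNNTGT is the core of the element shared by the progesterone and glucocorticoid receptors, and TGTTCT is 1 arm of it. The motif TGANTCA is bound by AP-1 dimers of the JUN and FOS families, and TGTTTAC by forkhead factors. The motif AGATAA is bound by the family of zinc finger proteins to which GATA3 belongs, and the motif GGGCGG by SP1. The promoter, chr11:101000545-101000794, is read on the minus strand, and the partners on the plus strand.
PGR promoter: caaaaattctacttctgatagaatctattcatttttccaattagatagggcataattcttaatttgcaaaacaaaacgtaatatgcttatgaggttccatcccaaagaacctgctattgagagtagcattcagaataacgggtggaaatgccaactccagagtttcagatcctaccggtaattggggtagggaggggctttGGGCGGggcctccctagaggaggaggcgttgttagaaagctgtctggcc
Partner 1 (chr11:101220097-101220246): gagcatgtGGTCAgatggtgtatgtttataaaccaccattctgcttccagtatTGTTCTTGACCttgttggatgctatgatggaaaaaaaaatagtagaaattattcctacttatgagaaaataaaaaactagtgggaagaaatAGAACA
Partner 2 (chr11:101198447-101198596): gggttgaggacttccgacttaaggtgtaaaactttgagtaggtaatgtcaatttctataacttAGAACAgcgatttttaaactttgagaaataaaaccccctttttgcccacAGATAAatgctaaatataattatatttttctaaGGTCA
Partner 3 (chr11:101170306-101170455): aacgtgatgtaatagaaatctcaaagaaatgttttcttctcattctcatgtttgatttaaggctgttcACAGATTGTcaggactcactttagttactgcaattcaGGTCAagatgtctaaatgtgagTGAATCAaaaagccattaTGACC
Partner 4 (chr11:101314179-101314328): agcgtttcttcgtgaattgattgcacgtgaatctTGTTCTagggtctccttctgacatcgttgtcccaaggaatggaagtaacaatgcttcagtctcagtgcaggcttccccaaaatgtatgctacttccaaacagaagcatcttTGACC
Partner 5 (chr11:101307416-101307565): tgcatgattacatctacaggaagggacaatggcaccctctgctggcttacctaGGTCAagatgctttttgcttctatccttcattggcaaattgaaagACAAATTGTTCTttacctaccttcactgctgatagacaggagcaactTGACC

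In T-47D, the PGR promoter was among the most connected in the list. A single anchor, chr11:100993092-101001250, lay over the first 4 start sites, so the promoters of the longer and the shorter form could not be told apart. It formed 23 loops with 23 partners, which held 517 read pairs (interval 473 to 564). That is 147 of every 100000 read pairs of the list (135 to 160). Among 20163 protein-coding genes, PGR ranked 41 by read pairs in promoter loops and 92 by partners. By comparison, 49.2% of genes had a promoter loop in T-47D, and these linked genes had a median of 23 read pairs and 4 partners. The PGR anchor is 8.16 kb wide, at percentile 99.5 of T-47D anchors by width. Per kb of promoter anchor, PGR held 63.4 read pairs against a median of 7.23 over linked genes, at percentile 98.9 of all protein-coding genes, compared with 99.8 by read pairs alone.

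In Ishikawa, the only PGR loop did not touch any of the first 4 start sites. Its anchor, chr11:100933329-100937733, lay over the start site of the retained-intron transcript PGR-206, 65788 bp inside the gene. The loop joined it to another PGR intron at chr11:100944899-100948661 over 11.2 kb, with 3 read pairs (interval 0.619 to 8.77), the lowest count that the list holds. This was 0.288 per 100000 read pairs, while 57.3% of genes had a promoter loop in Ishikawa and these had a median of 21 read pairs. The nearest Ishikawa anchors flanked the first start site without covering it, with gaps of 3.99 kb upstream and 8.49 kb downstream.

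In LNCaP, no anchor lay over any of the 6 PGR start sites, while 58.1% of genes had a promoter loop there. The nearest anchors were 13.0 kb downstream and 56.5 kb upstream of the first start site. Across the whole gene body, 2 anchors in T-47D took part in 38 loops with 910 read pairs, 7 anchors in Ishikawa in 10 loops with 36, and 4 anchors in LNCaP in 5 loops with 19. Both other lines thus had anchors in the gene, but their strongest loops held 8 and 5 read pairs, against 124 in T-47D.

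As a share of read pairs, the T-47D value was 510 times the Ishikawa value (interval 174 to 2483). Against LNCaP it was at least 886 times higher with LNCaP set at a floor of 3 read pairs. Counting error at that floor gives an interval of 301 to 4309, and the floor does not cover loops that the authors removed by false discovery rate. Promoter shares at least 4 times higher in T-47D were common, at 27.4% of genes over Ishikawa and 13.7% over LNCaP, and a gene at 3 in T-47D but at 0 in LNCaP already passes this mark. Of the 41 genes with at least 517 read pairs in T-47D, 4 had 3 or fewer in both other lists, namely PGR, EDN1, PRLR and TYRP1. The same share over all genes was not computed, so this count cannot be called few or many. Depth, as read pairs in loops, differed between all lists, and the paper states deeper sequencing per sample for Ishikawa than for T-47D and LNCaP. Ishikawa chromatin was cut with DpnII and sonicated by probe, where T-47D and LNCaP chromatin was cut with MboI and sonicated on a Covaris instrument. These differences cannot be told apart from that between Ishikawa and the other lines. Chromosome 11 held 9.45% of the T-47D read pairs, 3.53% of those from Ishikawa and 6.55% of those from LNCaP. As a share of chromosome 11 read pairs alone, the PGR value was 190 times higher in T-47D than in Ishikawa, and 614 times higher than in LNCaP with LNCaP set at 3 read pairs.

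**Figure D1:**
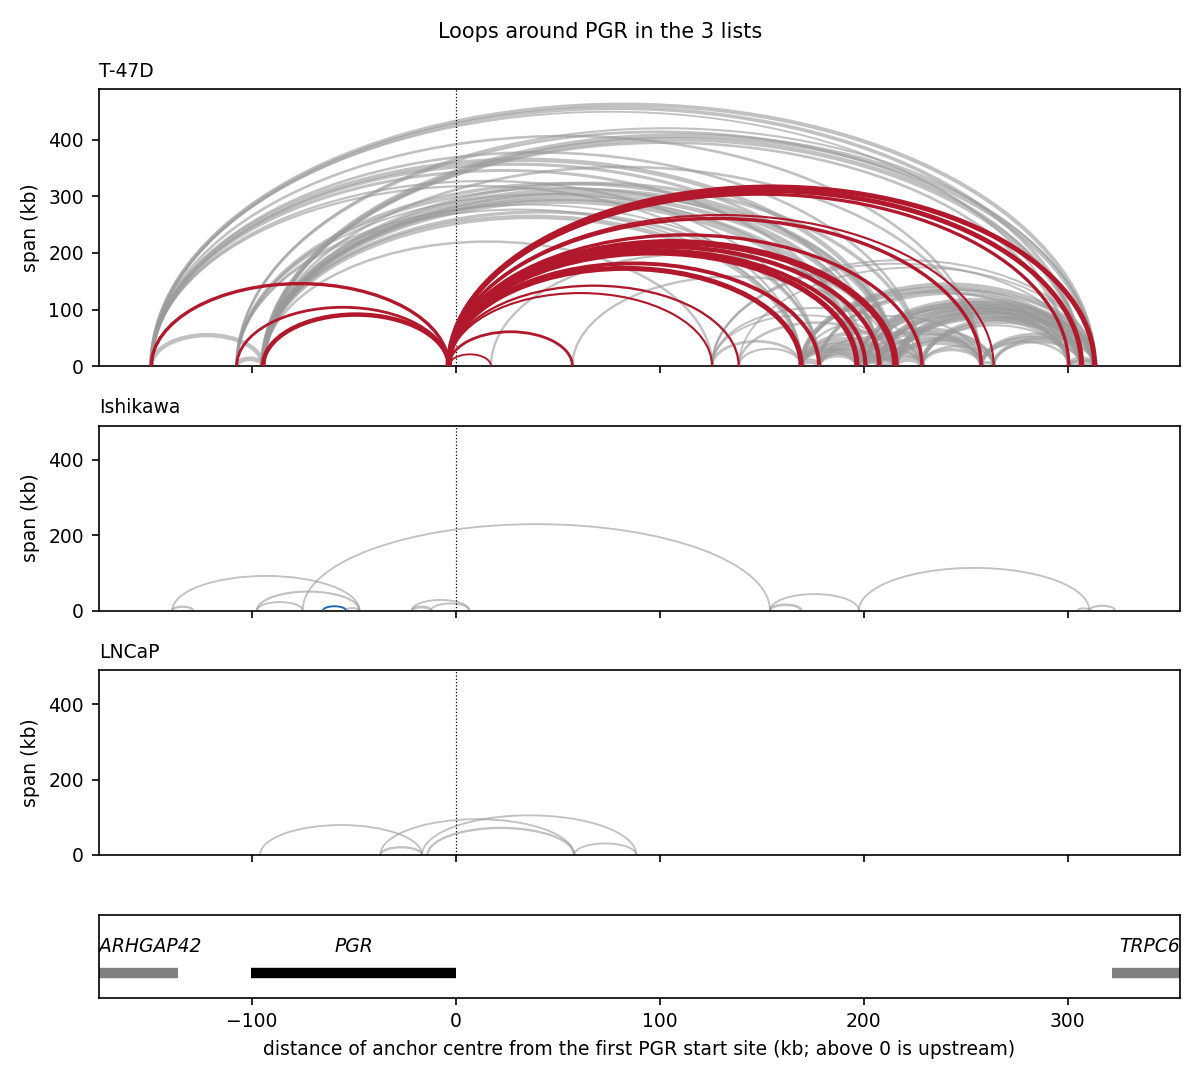
All loops with both anchors in the PGR contact region, drawn as arcs between anchor centres by distance from the first start site in kb (above 0 is upstream), with loop height equal to span in kb and line width rising with read pairs. Coloured arcs touch an anchor over a PGR start site (19 of 121 loops in T-47D, 1 of 15 in Ishikawa, 0 of 6 in LNCaP), grey arcs do not, and the bars at the bottom are genes, of which ARHGAP42 and TRPC6 run on past the edges.

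The T-47D partners fell mostly upstream of PGR, in the long interval without protein-coding genes between PGR and TRPC6. Upstream partners numbered 20 of 23 and held 465 of 517 read pairs (89.9%, 87.0 to 92.4). Within them, 12 partners between 169 and 313 kb upstream held 428 read pairs, or 82.8% of the total (79.2 to 85.9). All 12 of this main group, set by distance after the values were seen, lay outside annotated genes. The strongest 5 partners were all in this group and together held 312 read pairs (60.3%, 56.0 to 64.6).

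Partner 1, chr11:101211754-101220525, lay 216 kb upstream and held 124 read pairs (103 to 148), or 24.0% of the PGR total. This was 31 times the median of 4 read pairs over the 6223 T-47D loops of like span (182 to 331 kb), at percentile 99.99. The next, partner 2 at chr11:101194649-101199881, held 53 read pairs at 197 kb. Their intervals, 103 to 148 and 39.7 to 69.3, did not overlap, so partner 1 stood above the other partners in read pairs beyond counting error. Its anchor is also the widest of the main group, at 8.77 kb against 5.23 kb for partner 2. The partner at 208 kb, with 30 read pairs, is 1.75 kb wide, so this ranking holds for read pairs and not per kb of partner anchor.

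Partner 3, chr11:101167886-101172005, held 47 read pairs at 169 kb. Partner 4, chr11:101311391-101316191, also held 47, at 313 kb. Partner 5, chr11:101305428-101309375, held 41 at 307 kb. Counting error did not separate partners 2 to 5, whose intervals ran from 29.4 to 69.3 read pairs and overlapped each other. The other 7 partners of this group held 4 to 30 read pairs, with the partner at 208 kb at 30, that at 201 kb at 23 and that at 178 kb at 20.

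Downstream of the promoter there were 3 partners with 52 read pairs (10.1%, 7.60 to 13.0). The strongest, chr11:100901122-100911109, overlaps the 3' end of PGR itself, 94.4 kb from the first start site, and held 31 read pairs (21.1 to 44), 6.2 times the median for its span. The partner at 107 kb downstream lay between genes and held 8. The third, 149 kb downstream, lay in an intron of ARHGAP42, which encodes a GTPase-activating protein, and held 13.

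The remaining upstream partners were weak. The 4 within 139 kb held 3 to 8 read pairs each, 20 in all (3.87%), and those at 17.4 and 57.3 kb lay in introns of PGR-AS1, a long non-coding gene annotated on the opposite strand. The closest of them, at 17.4 kb, held 3 read pairs where the median for its span was 7. The 4 partners from 880 to 1525 kb held 3 to 7 each, 17 in all (3.29%).

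The far group included the only promoters among the partners, each with 3 read pairs. One was the anchor over the start of YAP1, a transcriptional coactivator of the Hippo pathway, at chr11:101979800-101984144. The other held the start of BIRC2, an inhibitor of apoptosis, at chr11:102215889-102219395. Both counts are the lowest in the list and near the median of 3 for loops of that span, so at this depth they cannot be ranked against other long loops.

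Read pairs fall with span over the whole list, and the PGR loops of the main group did not follow this fall. The PGR loops over 330 kb held 3 to 7 read pairs, where the median for their span was 3. Of all 23 PGR loops, 18 had more read pairs than the median of T-47D loops of like span and 14 stood at or above its 90th percentile. All 23 share the promoter anchor, 8.16 kb wide, and the loops of like span were not matched on anchor width. A median loop of 100 to 331 kb held 4 read pairs, while the median of the 12 partners at 169 to 313 kb was 26.5. The nearest annotated start site of a protein-coding gene belonged to PGR for 6 of the 23 partners. For all 12 partners of the main group it belonged to TRPC6, whose nearest annotated start site, 326 kb upstream of PGR, is that of a short transcript annotated as a retained intron. With start sites of protein-coding transcripts only, a setting chosen after seeing the data, PGR was nearest for 10 of the 23 partners, and the 12 of the main group divided into 6 nearest to PGR and 6 nearest to TRPC6.

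**Figure D2:**
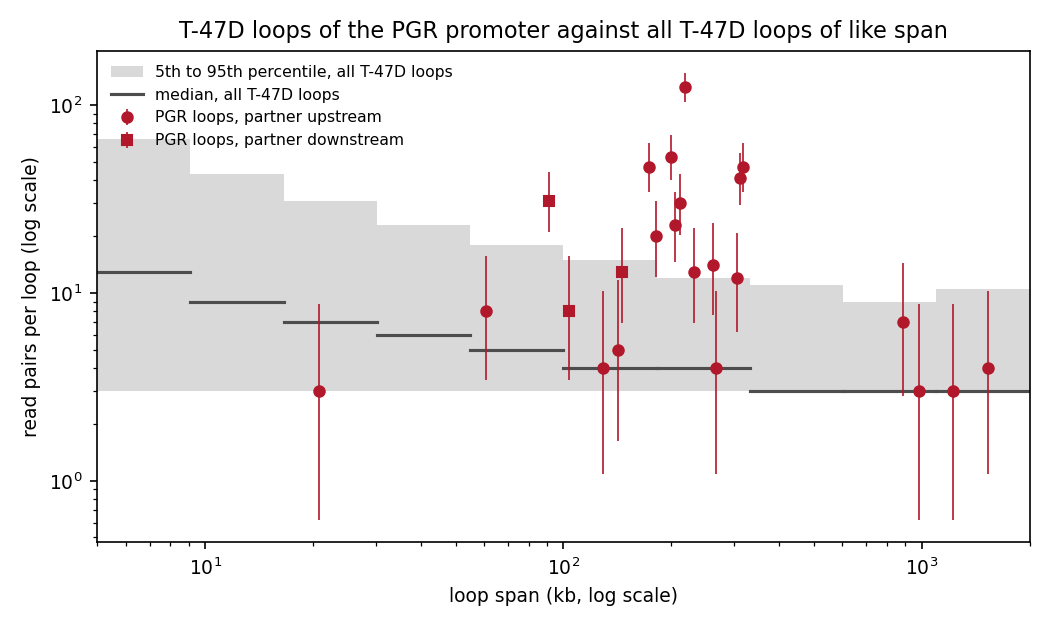
Read pairs of the 23 T-47D loops of the PGR promoter against loop span in kb (both axes log), circles for upstream and squares for downstream partners, with 95% exact Poisson intervals, over the median and the 5th to 95th percentile of all T-47D loops in 10 bins of span. The loop at 219 kb with 124 read pairs stands highest, and the loops over 330 kb lie near the median of 3.

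TRPC6 encodes a calcium-permeable channel. Its protein-coding transcripts start 454 kb upstream of PGR, and its only T-47D promoter anchor lies there. The 12 partners of the main group held 428 read pairs with the PGR promoter and 12 with the TRPC6 promoter, through 3 loops. With the YAP1 promoter they held 24 read pairs in 4 loops, with CFAP300 9 in 2, and with ANGPTL5 and CEP126 3 each. The 12 were picked by their loops with PGR, so the higher count of PGR follows in part from that choice. Over all 23 partners, 10 were also linked to the promoter of another protein-coding gene, most of them to YAP1.

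The partners were joined to each other as well as to PGR. Of 253 possible pairs of partners, 121 were joined by a loop (47.8%, 41.5 to 54.2), with 2990 read pairs in all. Within the main group 61 of 66 pairs were joined (92.4%, 83.2 to 97.5), with 2288 read pairs. Between the main group and the 3 downstream partners, on the far side of the promoter, 28 of 36 pairs were joined (77.8%, 60.8 to 89.9), with 478 read pairs.

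A connected set of partners is usual in this list. Over the 6654 genes with at least 3 partners the median share of joined pairs was 42.7%, and PGR stood at percentile 56.3. Over the 570 genes with at least 15 partners the median was 41.9%, and PGR stood at percentile 62.4. The share thus did not set PGR apart from other genes.

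Partner 1 was the most connected anchor of the region. It took part in 33 loops, rank 18 of 19386 anchors in T-47D, whose median is 3. The anchor is 8.77 kb wide, and this rank was not adjusted for anchor width. It was joined to 21 of the other 22 partners with 1331 read pairs, more than the 517 of the promoter with all its partners. The exception was the BIRC2 promoter, which was joined to none of them. The strongest loop of the region ran from partner 1 to the anchor 208 kb upstream of PGR and held 206 read pairs over 7.88 kb. The loops of partner 1 with partners 5 and 4 held 186 and 169 read pairs over 91.3 and 97.7 kb, both above its 124 with the promoter. The promoter anchor itself, with 23 loops, ranked 129.

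**Figure D3:**
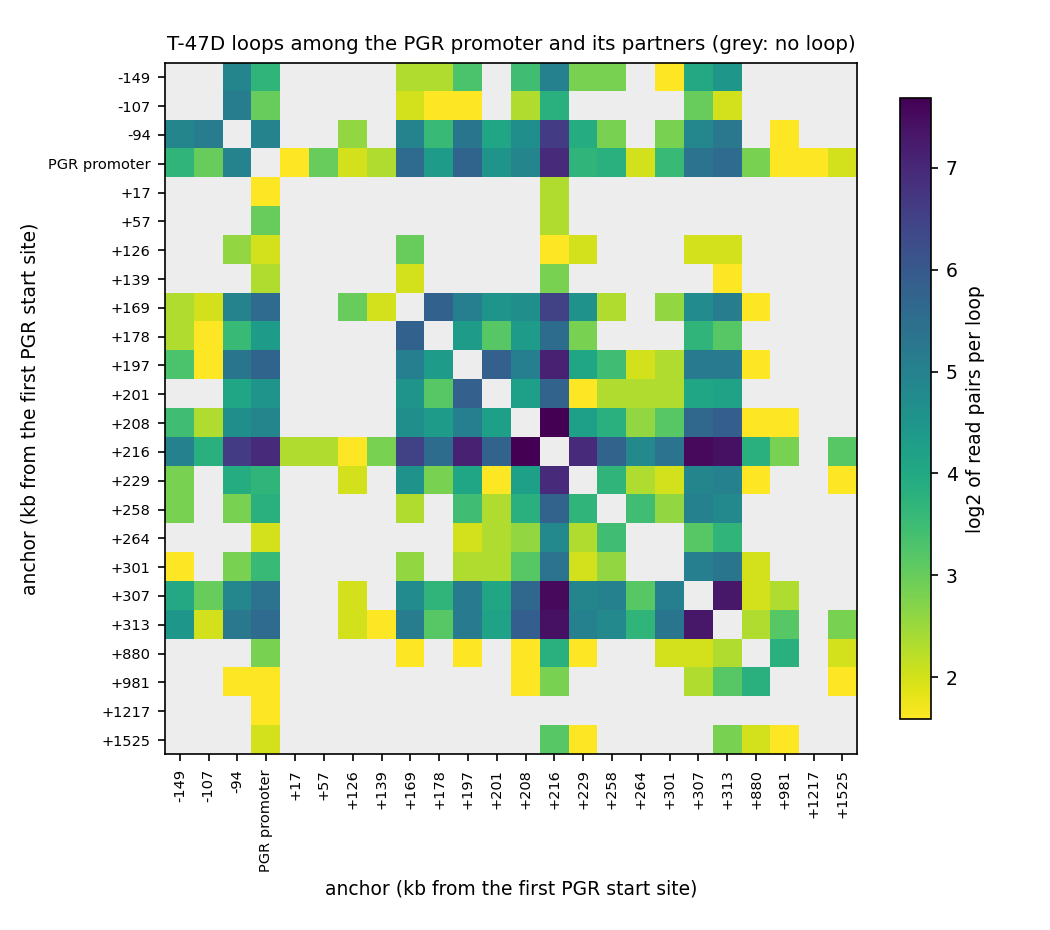
Read pairs (log2) of every T-47D loop among the PGR promoter anchor and its 23 partners, ordered by distance from the first start site in kb, with grey where no loop was listed. The anchors from +169 to +313 form a nearly filled block (61 of 66 pairs), the row of the anchor at +216 holds the highest counts, and the anchors at +17 and +57 are joined to the promoter and the anchor at +216 only.

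The same region held few loops in the other lists. Its bounds were set by the T-47D partners. A high T-47D count inside them, and a smaller difference outside, thus follow in part from that choice. Between the farthest downstream partner and partner 4, with 10 kb on each side, T-47D held 121 loops with 3384 read pairs, 963 per 100000 (931 to 996). Ishikawa held 15 loops with 58 read pairs, 5.58 per 100000 (4.23 to 7.21). LNCaP held 6 loops with 22 read pairs, 1.22 per 100000 (0.764 to 1.84).

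Outside this region but within 2 Mb of PGR the lines differed less. There T-47D held 154 read pairs per 100000, with 63.6 in Ishikawa and 47 in LNCaP. With all other read pairs within 2 Mb as the denominator, which include the loops among the partners, the PGR share was 36.1 times higher in T-47D than in Ishikawa, and 43.8 times higher than in LNCaP with LNCaP set at 3 read pairs. With only those outside the region, a setting chosen after seeing the data, the same values were 210 and, at the same floor, 270.

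Some of the T-47D partner positions carried an anchor in the other lines. In Ishikawa, 7 of the 23 partners overlapped an anchor (30.4%, 13.2 to 52.9), against 50.3% of all T-47D anchors. In LNCaP, 4 of 23 did (17.4%, 4.95 to 38.8), against 61.1%. The shares over all T-47D anchors include promoter anchors, whereas only 2 of the 23 partners hold a promoter. No share over anchors without a promoter was computed, so the 2 sets are not alike. The Ishikawa positions were partners 2 to 5, the partner at 201 kb, the 3' end of PGR and the YAP1 promoter. Partner 1 overlapped no anchor in either list. The LNCaP positions were the 3' end of PGR, the partner at 57.3 kb and the promoters of YAP1 and BIRC2.

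Where anchors were present, the T-47D loops between them were mostly not listed. Of the joined pairs of T-47D partners, 18 had both anchors present in Ishikawa, and 5 of these were joined there. These 5 are not separate Ishikawa loops. The Ishikawa anchors 198 and 311 kb upstream of PGR each overlap more than 1 partner, so 1 loop between them stands for several pairs. The remaining pair came from a loop of 3 read pairs between anchors 305 and 311 kb upstream. The partners at 197 and 201 kb overlap the same Ishikawa anchor, so their pair could not be joined there. In LNCaP 1 pair had both, and it was not joined. The Ishikawa loops near these positions were weak, such as 3 read pairs between anchors 198 and 311 kb upstream of PGR and 7 between anchors 154 and 169 kb upstream, the latter found in 2 of the 4 parts of the Ishikawa list.

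The genes around PGR held far fewer read pairs than PGR in T-47D. There are 21 other protein-coding genes with a start site within 2 Mb. The highest among them in T-47D was YAP1, with 98 read pairs (27.9 per 100000), against 16 in Ishikawa (1.54) and 317 in LNCaP (17.6). In the same order of lines, BIRC2 held 34, 19 and 67, and BIRC3, another inhibitor of apoptosis, held 17, 0 and 150.

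The direct neighbours differed from each other. ARHGAP42, downstream of PGR, had no promoter loop in T-47D or LNCaP but 46 read pairs with 10 partners in Ishikawa. TRPC6 held 12 T-47D read pairs, 8 Ishikawa read pairs and no LNCaP read pairs, and ANGPTL5 held 7, 0 and 0. With counts under 3 set at 3, the T-47D shares of TRPC6 were 4.44 and 20.6 times those in Ishikawa and LNCaP, and those of ANGPTL5 6.91 and 12.0 times. Like PGR, both thus passed the 4-fold mark over both lines, as 8.26% of all genes did. CEP126, a centrosomal protein gene, held 7, 54 and 4. Among the cluster of matrix metalloproteinase genes farther upstream, none had a promoter loop in T-47D, and MMP10 and MMP1 held 35 and 17 read pairs in LNCaP.

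**Figure D4:**
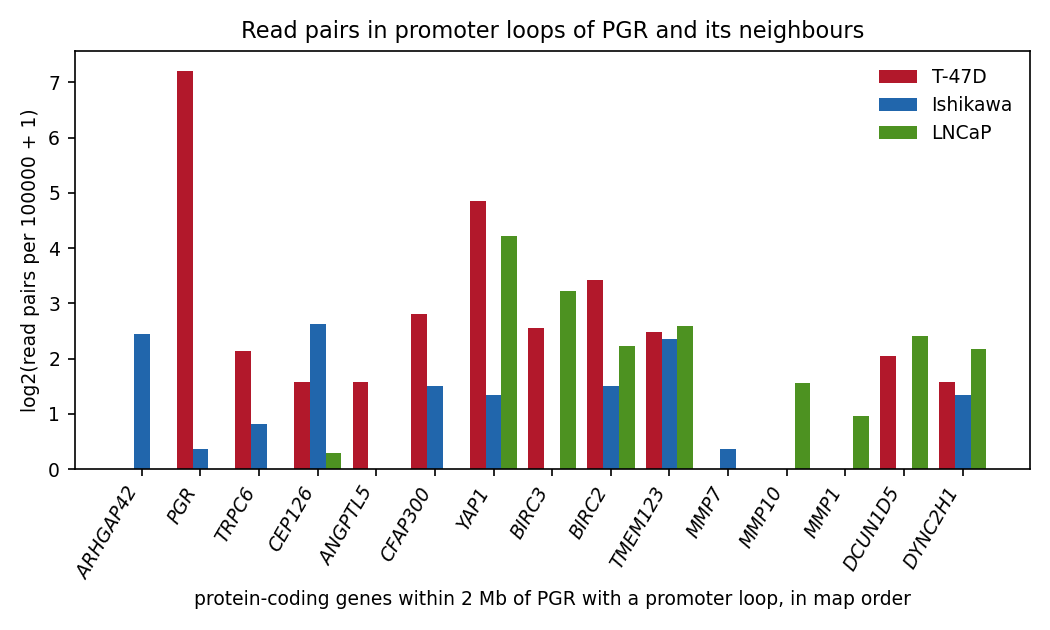
Read pairs in promoter loops per 100000 read pairs of the list, as log2(value + 1), for PGR and the protein-coding genes within 2 Mb that had a promoter loop in any list, in map order, with 1 bar for each of the 3 lists. PGR in T-47D is the highest bar (147 per 100000), and YAP1 in T-47D the next (27.9).

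The other steroid receptor genes held fewer read pairs than PGR in T-47D. ESR1, the estrogen receptor alpha gene, held 195 T-47D read pairs (55.5 per 100000), 299 from Ishikawa (28.7) and 8 from LNCaP. NR3C1, the glucocorticoid receptor gene, held 3, 31 and 0 in the same order of lines, and NR3C2, the mineralocorticoid receptor gene, held 0, 37 and 4. ESR2, the estrogen receptor beta gene, held 36, 10 and 24, which as shares (10.2, 0.961 and 1.33 per 100000) were 10.7 and 7.71 times higher in T-47D than in Ishikawa and LNCaP, so that it too was highest in T-47D. So Ishikawa had many contacts at ESR1 and nearly none at PGR, while T-47D had many at both.

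In a list of 42 genes of the receptor's pathway, 28 had a T-47D promoter loop, 30 an Ishikawa one and 32 one from LNCaP (66.7%, 71.4% and 76.2%), against 49.2%, 57.3% and 58.1% of all genes. Shares at least 4 times higher in T-47D were found for 16 genes over Ishikawa and 7 over LNCaP, or 38.1% and 16.7% of the list beside the 27.4% and 13.7% of all genes given above. Over both lines together 4 of 42 genes passed (9.52%), near the 8.26% of all genes. The median of the list was 8 read pairs for T-47D, 16.5 for Ishikawa and 83.5 for LNCaP, against 0, 4 and 13 over all genes.

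Luminal regulators of transcription held the highest counts of the list in T-47D. GATA3, a transcription factor of the luminal lineage, held 1063 read pairs there. FOXA1, which opens chromatin for steroid receptors, held 908, against 0 in Ishikawa and 6348 in LNCaP. These were the only members of the list above PGR in T-47D. TFAP2C, the third luminal factor, held 77 read pairs there, 10 in Ishikawa and 13 in LNCaP.

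Chaperones that hold steroid receptors ready for hormone were linked in most lists, 7 of 8 for T-47D, 7 for Ishikawa and all 8 for LNCaP (87.5%, 87.5% and 100%), above the shares of 49.2%, 57.3% and 58.1% over all genes. In T-47D, HSP90AA1 held 160 read pairs, HSP90AB1 131 and PTGES3, a cochaperone of HSP90, 187. Their T-47D shares were 19.0, 43.1 and 18.5 times those in Ishikawa. Over LNCaP the same ratios were 4.54, 1.88 and 2.54. A share at least 4 times higher in T-47D was found for 6 of the 8 over Ishikawa (75%, against 27.4% of all genes). Over LNCaP it was found for 1 (12.5%, against 13.7%). With 8 genes, neither count is read as a trait of chaperones. STIP1 went the other way, with no T-47D promoter loop but 53 Ishikawa and 215 LNCaP read pairs. FKBP4 stayed under the 4-fold mark, at ratios of 1.37 over Ishikawa and 3.04 over LNCaP.

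All 7 coregulators were linked in every list, against 49.2%, 57.3% and 58.1% of all genes. Only NCOA3, a coactivator of steroid receptors, had a share at least 4 times higher in T-47D than in Ishikawa (65 and 27 read pairs, a ratio of 7.13). That is 14.3% of the 7, against 27.4% of all genes. None passed over LNCaP, where 13.7% of all genes did. With 7 genes, neither count is read as a trait of coregulators. Of 5 membrane progestin receptor genes, which encode proteins unrelated to the nuclear receptor, 1 was linked in T-47D (PGRMC2, 14 read pairs) and 2 in each other line (20% and 40%), below the shares of all genes that were linked.

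Of 15 genes known to respond to progestins, 7 were linked in the T-47D list, 9 in the Ishikawa list and 10 in the LNCaP list (46.7%, 60% and 66.7%), near the shares of all genes given above (49.2%, 57.3% and 58.1%). FKBP5, a cochaperone that steroid receptors induce, held 136, 9 and 1278 read pairs in the same order. ZBTB16, a transcriptional repressor, held 7849 read pairs in LNCaP and 0 in both other lists. KLF9, a zinc finger factor, held 44, 25 and 971. Within T-47D, none of the 15 reached the count of PGR.

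The profiles most like that of PGR over the 3 cell lines (T-47D, Ishikawa and LNCaP, in that order below) were found by the Euclidean distance of log2(read pairs per 100000 + 1). They were those of MAP6D1 (distance 0.16), TYRP1 (0.37), HOXC11 (0.37), EDN1 (0.42) and PRLR (0.44). PRLR, which encodes the prolactin receptor, held 705, 3 and 0 read pairs in that order of lines. MAP6D1 held 463, 3 and 0. With 3 points per gene, such a distance says only that the genes were high in T-47D and near 0 in the others.

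The sequence of the partners was set beside that of all distal T-47D anchors. The 21 partners that hold no promoter had a median of 38.7% G and C in the central 1000 bases, against 45.9% over 9868 distal anchors. This bears on the motif counts, since motifs rich in G and C are rarer in such sequence. The promoter window of PGR, from 250 bases before to 50 after the first start site, had 44.3%, against a median of 60.3% over 20090 promoters.

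No partner held a full ERE of the form GGTCANNNTGACC, on its central 1000 bases or over the 84835 bases of all 23 partner anchors, and neither did the promoter anchor. It is rare, at 0.395% of distal anchors. The single arm GGTCA lay in 14 of 21 windows (66.7%, against 82.8% of distal anchors). A full ERE holds this arm on both strands, so the searches overlap.

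For the element of the receptor's own class, ACANNNTGT lay in 8 of 21 windows (38.1%, against 25.8%) and the single arm TGTTCT in 15 (71.4%, against 54.0%). In the partner 1 stretch shown above, TGTTCT is directly followed by TGACC, the reverse complement of GGTCA. The motif AGATAA lay in 9 windows (42.9%, against 41.9%), TGTTTAC in 3 (14.3%, against 17.5%), TGANTCA in 5 (23.8%, against 29.0%) and GGGCGG in 1 (4.76%, against 26.3%). In the promoter window GGGCGG occurred once, as it does at least once in 52.2% of promoters, and none of the other motifs named here occurred. A match is a description of letters and not a site of binding.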

How the data were processed

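H3K27ac HiChIP loops of human T-47D, Ishikawa and LNCaP cells were analysed, with samples grouped by the cell line in their labels. Per the labels and the study's methods, the authors aligned reads to hg19 with HiC-Pro, called loops with hichipper, filtered them on read pairs and false discovery rate, and pooled the samples of each line. The deposited values are counts of read pairs per loop, not normalised, and are PCR-amplified reads without molecular identifiers. The Ishikawa list holds 4 sorted parts that repeat anchor pairs; these were summed and not assigned to samples. Rows that join an anchor to itself were left out of loops. Anchor edges on chromosome 11 were checked against the genome sequence, and all lay within 3 bases of a GATC cut site, at a fixed offset in each list, which fits the stated build.

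Start sites came from GENCODE 44 lifted to GRCh37. A gene's promoter loops were those with an anchor over a window of 500 bp centred on any of its start sites; partners are the anchors at the other end. Distances run from the first start site of PGR to the centre of the anchor. Loops of like span were those in the same of 10 logarithmic bins from 5 kb to 2 Mb. Shares are read pairs per 100000 of the list, and a list under 3 read pairs was counted as 3 in ratios, whose intervals are exact conditional binomial ones. Genes named are PGR, genes in its partners or within 2 Mb, the pathway list by role (1 member is counted but not reported here), the 5 most alike profiles, and the line markers. Members and lists were chosen with earlier results of these data known. Counting was tested on simulated data. Alternatives changed the count minimum, span, window, start sites, Ishikawa parts, depth, denominator and overlap. Python 3.11.15, numpy 2.4.6, scipy 1.17.1 and matplotlib 3.10.9 were used. No replicate of any line had its own list, so no test between lines was made.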

Additional observations from a re-analysis of the deposited data

Results flagged for a closer look

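Rows that join an anchor to itself were not counted as loops. In T-47D, the PGR promoter anchor held 180 such read pairs, which is signal outside the loops described above and stands at percentile 99.4 of the 15042 self rows of that list. Of its 23 partners, 19 also had self pairs, from 3 to 589 with a median of 23. The anchor's width of 8.16 kb, at percentile 99.5, moves with this count, and its part in it was not tested.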

How the results depend on the processing

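No paired analysis was possible because each line has 1 pooled list whose columns carry no replicate number. PGR had 0 promoter loops in LNCaP under each of the 8 count, span, window, start site, part and depth settings. Only the promoter window of 2 kb could have added a loop there, so the other settings were no check on this 0. The single Ishikawa loop of PGR was lost under 6 of the 8. The T-47D over Ishikawa ratio of 510 was 110 with all lists thinned to the read pairs of T-47D (Ishikawa then set at 3 read pairs), and 36.1 over the other read pairs within 2 Mb, which include the loops among the partners. The T-47D over LNCaP bound of 886 was 125 and 43.8 under these settings, and 270 over the read pairs within 2 Mb outside the contact region, a setting chosen after seeing the data. The percentile of 99.8 was 99.9 with spans of 20 kb to 1 Mb or with 1 start site per gene, and 98.9 per kb of promoter anchor, also chosen after seeing the data. The share of joined partner pairs, 47.8%, was 58.8% with a minimum of 5 read pairs and 71.8% with 10. Partners that overlap Ishikawa anchors rose from 7 to 11 when centres within 10 kb counted, and those that overlap LNCaP anchors fell from 4 to 1 when 50% of both anchors had to overlap. No ratio changed direction. By read pairs in loops, the shallowest list is T-47D, so its high counts were reached at the least depth by that measure. The lack of loops in the other lists is limited by their minimum of 3 read pairs and by the filter on false discovery rate.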
